A study of Mus musculus with 6 samples.

Results

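Ribosomes are built in the nucleolus, and the transcripts of 45 mouse genes that carry out this work were followed here in primary adipose-derived stromal cells (ADSCs). The genes were chosen by name, for their known role in making ribosomal RNA (rRNA) or in processing, modifying and assembling it. Earlier results of these data were known when they were chosen, so the set is not independent of the data. All 45 were found among the 22186 genes measured. ADSCs grow out of fat tissue and resemble fibroblasts, and their genotype is labelled WT. Control libraries (n = 3) came from ADSCs without co-culture, labelled Ctrl, and the other libraries (Treg co-culture, n = 3) from ADSCs of the same genotype that had spent 48 h with Treg, the regulatory class of T cells, known for holding back immune reactions. Each control library shares a labelled batch, 1 to 3, with the co-culture library of the same number. The labels name no other agent and no age, and do not say whether the libraries came from separate animals or cultures, so every p-value rests on library-to-library spread that may be only technical. The series title names translation and muscle differentiation, and the comparison asks how the transcripts that supply new ribosomes differed between the groups.

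A ribosome begins as a long precursor RNA that RNA polymerase I (Pol I) copies from the rRNA genes. Small nucleolar ribonucleoproteins (snoRNPs) modify the precursor, the box C/D class by methylating riboses and the box H/ACA class by turning uridines into pseudouridines. A large assembly called the small-subunit processome then folds and cuts the part that becomes the small subunit, while a separate set of assembly factors matures the large subunit. The transcription factor Myc raises the expression of many of these genes, and growing or dividing cells usually hold more of their transcripts than resting cells.

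Nearly the whole set was higher after Treg co-culture, by modest amounts. Of the 45 genes, 41 rose and none fell (limma on log2(TPM + 1), Benjamini-Hochberg adjusted p under 0.05 over all genes), against 19.8% of all 12405 genes tested that rose and 18.0% that fell. TPM is a length-corrected share of all transcripts in a library, so levels can be compared between genes and a change is relative to all other transcripts. At an unadjusted p under 0.05, all 45 were higher and 0 were lower. The share of all genes at an unadjusted p was not counted, here or for the lists below. Already at the adjusted threshold, 37.8% of all genes tested passed in either direction. The median log2 fold change of the 45 was 0.33, with a range of 0.11 to 0.59, and that of all genes tested was 0.002. Summed over the 45 genes, controls held 3574, 3373 and 3395 TPM and co-culture libraries 4180, 4133 and 4204 TPM. The 3 co-culture values lay above all 3 control values for 43 of the 45 genes, against 25.3% of all genes tested. In bulk RNA, more cells of a type and more RNA per cell cannot be told apart.

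The library of co-culture 1 stood apart in 8 liver and heart transcripts, which summed to 109 TPM there and to between 1.14 and 2.08 TPM in the other 5 libraries. Without that library 37 of the 45 genes rose, against 17.1% of all genes tested, and their median log2 fold change was again 0.33. Mitochondrially encoded genes took 9.01% to 9.38% of TPM in the control libraries and 8.55% to 8.85% after co-culture, and sequencing depth is unknown, so no counting interval can be given.

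Each batch pairs 1 control with 1 co-culture library. Co-culture exceeded control for 45 of the 45 genes in batch 1, 45 in batch 2 and 44 in batch 3, with median log2 differences of 0.34, 0.35 and 0.32, while 49.8% to 51.8% of all genes tested were higher. The exception in batch 3 was Nip7. With the batch as a replicate block in the fit, 39 of the 45 genes rose, against 19.1% of all genes tested. Over all 3 batches, 44 of the 45 genes were higher each time, against 31.9% of all genes tested.

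**Figure D1:**
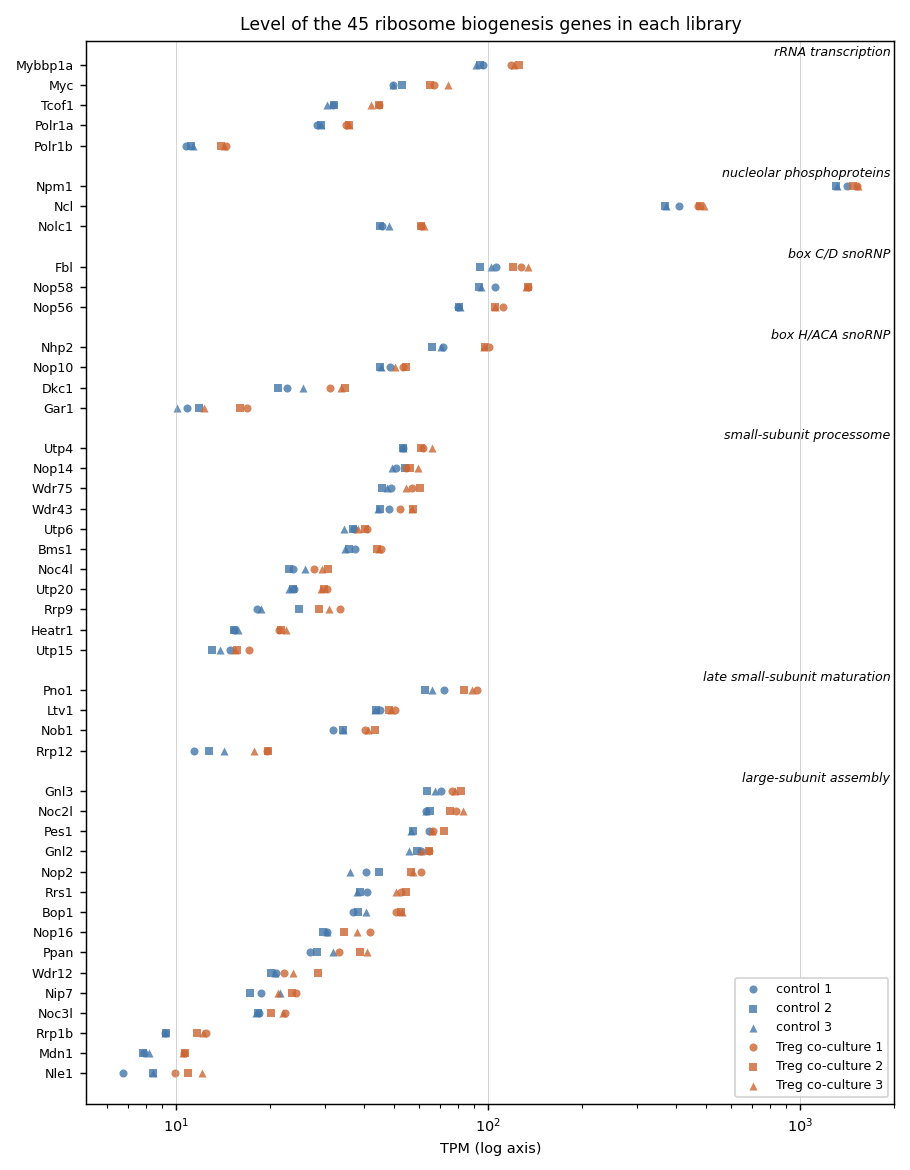
Level of each of the 45 genes in the 6 libraries, in TPM on a log axis, sorted by role and then by control mean; blue marks are control and orange marks Treg co-culture libraries, and the mark shape gives the batch. Orange marks lie to the right of blue marks in nearly every row, and Npm1 and Ncl stand far above the rest.

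All 5 of the 45 genes grouped under rRNA transcription rose, against 19.8% of all genes tested. Myc, the growth-promoting transcription factor, stood at 49.6, 53.1 and 49.5 TPM in controls 1 to 3 and at 67.1, 64.8 and 74.3 TPM in co-culture 1 to 3. The groups did not overlap, and the mean was 1.36-fold higher (log2 fold change 0.43, SE 0.06, limma adjusted p = 0.000196). Tcof1 encodes treacle, a nucleolar scaffold that supports Pol I transcription, and went from 31.7, 32.1 and 30.4 TPM to 44.5, 44.5 and 42.0 TPM. Mybbp1a, a nucleolar Myb-binding protein, went from 96.4, 93.8 and 91.1 TPM to 118, 126 and 121 TPM. Neither gene's groups overlapped, with log2 fold changes of 0.46 (SE 0.05) and 0.37 (SE 0.04). The catalytic core of Pol I also rose, with its largest subunit Polr1a at 28.8 ± 0.470 TPM in the control libraries and 35.6 ± 0.424 TPM after co-culture (± is the SD over 3 libraries) and its partner Polr1b at 11.1 ± 0.311 and 14.2 ± 0.271 TPM.

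Few of the remaining Pol I genes passed the test. Of 13 further genes for Pol I subunits and transcription factors, 2 rose and none fell. Among all genes tested, 19.8% rose and 18.0% fell. The median log2 fold change of the 13 was 0.09 (at an unadjusted p under 0.05, 5 higher and 0 lower). The 2 that rose were Rrn3, the factor that brings Pol I to its promoter (0.16, adjusted p = 0.0122 in limma), and the subunit Polr1g (0.21, adjusted p = 0.0419). The Polr1g call was lost with the replicate block (adjusted p = 0.0695) with no filter (0.0717), without the mean-variance trend (0.0606) and without control 1, control 2, co-culture 1 or co-culture 2 (0.0933 to 0.144). Without control 1 the counts were 1 higher and 1 lower, without co-culture 1 they were 1 and 0, and without co-culture 2 they were 3 and 0.

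The abundant nucleolar proteins set the scale of the whole set. Npm1, the nucleolar chaperone nucleophosmin, was the most abundant of the 45 transcripts, with 1411, 1301 and 1313 TPM in the control libraries and 1525, 1474 and 1528 TPM after co-culture. Its rise was among the smaller ones (log2 fold change 0.17, SE 0.03, adjusted p = 0.0014 in limma) yet cleared the control range in every library. Nucleolin, Ncl, which binds the rRNA precursor, had 409, 368 and 370 TPM in the control libraries and 471, 476 and 490.4 TPM after co-culture (0.33, SE 0.04). Control 1 was the highest control for both Npm1 and Ncl and still lay below all co-culture libraries. Nolc1, a chaperone that accompanies snoRNPs, went from 45.8, 45.0 and 48.2 TPM to 61.0, 60.8 and 62.1 TPM (0.40, SE 0.04).

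The 7 snoRNP protein genes among the 45 all rose, against 19.8% of all genes tested. Among the box C/D proteins, the scaffold Nop56 went from 80.1, 80.6 and 81.3 TPM to 111, 105 and 105 TPM, with a log2 fold change of 0.40 (SE 0.04, limma adjusted p = 1.44e-05). Its partner Nop58 went from 105, 93.1 and 94.8 TPM to 134, 134 and 133 TPM. The methyltransferase fibrillarin, Fbl, went from 106, 93.8 and 102 TPM to 128, 120 and 134 TPM. Control means of the 3 transcripts ran from 80.7 to 101 TPM, and their ratios of means were 1.33, 1.37 and 1.26.

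Box H/ACA transcripts were less even in level. Nhp2, a core protein of these particles, had 71.6, 65.9 and 70.4 TPM in the control libraries and 100.1, 97.3 and 97.1 TPM after co-culture, and its log2 fold change of 0.50 (SE 0.04) had the lowest adjusted p of the 45 genes in limma (8.33e-06). The pseudouridine synthase dyskerin, Dkc1, which also belongs to telomerase, went from 22.6, 21.1 and 25.4 TPM to 31.1, 34.7 and 33.7 TPM (0.51, SE 0.07). The small core protein Nop10 went from 48.3, 44.9 and 45.2 TPM to 53.3, 54.6 and 50.2 TPM, a smaller rise (0.19, SE 0.05) whose call was lost without co-culture 2 (adjusted p = 0.0535). Gar1 was the scarcest of the 4, at 10.9 ± 0.886 TPM in the control libraries and 15.0 ± 2.42 TPM after co-culture. Co-culture 3 was low for Gar1, at 12.3 TPM against 16.9 and 16.0 TPM, and the call (adjusted p = 0.0142) was lost without control 3, co-culture 1 or co-culture 2 (0.0521 to 0.0567). Mean control levels in this particle thus ran from 10.9 TPM for Gar1 to 69.3 TPM for Nhp2.

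Of the 11 small-subunit processome genes among the 45, 8 rose, against 19.8% of all genes tested. Heatr1, which joins the earliest subcomplex on the precursor and also supports Pol I transcription, went from 15.3, 15.4 and 15.8 TPM to 21.4, 21.6 and 22.4 TPM (log2 fold change 0.47, SE 0.06). Bms1, a GTPase of the processome, went from 37.4, 35.7 and 34.8 TPM to 45.2, 43.9 and 44.6 TPM (0.30, SE 0.05). The large scaffold Utp20 went from 23.8, 23.6 and 23.0 TPM to 30.5, 29.7 and 29.0 TPM (0.33, SE 0.05). Each of these transcripts had co-culture values in a narrow band above the controls. The widest rise of all 45 genes was in Rrp9, a protein of the snoRNP that guides early cleavage (0.59, SE 0.11, adjusted p = 0.00183 in limma). Its controls were uneven, at 18.1, 24.7 and 18.6 TPM, and its co-culture values were 33.6, 28.7 and 30.9 TPM. Smaller rises were measured for Utp4 (0.23), Wdr43 (0.27) and Wdr75 (0.27), which belong with Heatr1 to the early subcomplex, and Noc4l (0.27), which pairs with Nop14.

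The 3 processome genes that missed the threshold were Utp15 (0.19, adjusted p = 0.0665 in limma), Utp6 (0.14, adjusted p = 0.057) and Nop14 (0.14, adjusted p = 0.054). In all 3 the co-culture libraries still lay above the controls, for Utp6 at 40.9, 40.2 and 38.2 TPM against 37.1, 36.7 and 34.4 TPM. The same separation held for 25.3% of all genes tested. Utp15 passed without control 1 (adjusted p = 0.0468) and Nop14 without control 2 (0.031) or with a filter of 5 TPM (0.0492).

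All 4 of the 45 genes grouped under late small-subunit maturation rose, against 19.8% of all genes tested. Pno1, which holds the end of the small-subunit rRNA until its last cut, went from 71.9, 62.9 and 65.9 TPM to 92.2, 83.8 and 89.0 TPM (log2 fold change 0.40, SE 0.05). Nob1, the nuclease that makes that cut, went from 31.7, 34.2 and 34.1 TPM to 40.3, 43.2 and 41.1 TPM (0.31, SE 0.05). Rrp12, which helps subunits leave the nucleus, went from 11.4, 12.7 and 14.2 TPM to 19.6, 19.7 and 17.8 TPM (0.54, SE 0.09), after Rrp9 the largest rise of the 45. The late assembly factor Ltv1 rose least of these 4 (0.15, SE 0.04), and its call (adjusted p = 0.0194) was lost without control 2, control 3 or co-culture 1 (0.0531 to 0.0739).

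Of the 15 large-subunit assembly genes among the 45, 14 rose, against 19.8% of all genes tested. The median log2 fold change of the 15 was 0.32. Rrs1, which helps bring the smallest rRNA into the large subunit, went from 40.9, 38.8 and 37.8 TPM to 52.6, 54.5 and 50.6 TPM (0.42, SE 0.05). Nop2, an rRNA methyltransferase, went from 40.5, 44.6 and 36.0 TPM to 60.7, 56.4 and 57.5 TPM (0.52, SE 0.07). Both transcripts separated the groups in full. The scarcest members, Mdn1 (7.95 ± 0.198 TPM in controls), a giant ATPase that strips factors off the maturing subunit, and Nle1 (7.86 ± 0.958 TPM), its docking partner, stood at 10.6 ± 0.0919 and 11.0 ± 1.08 TPM after co-culture, log2 fold changes of 0.37 and 0.44.

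Bop1, Pes1 and Wdr12 encode the proteins of a single complex, named PeBoW after them. Bop1 went from 36.8, 38.1 and 40.7 TPM to 50.4, 52.4 and 52.8 TPM (0.42, SE 0.05, limma adjusted p = 0.000105). Pes1 had 59.4 ± 4.40 TPM in the control libraries and 68.2 ± 3.34 TPM after co-culture (0.20, adjusted p = 0.0213), and the call was lost without control 2, control 3 or co-culture 2 (0.0748 to 0.0828) and without the trend (0.0676). Wdr12 had 20.5 ± 0.447 and 24.7 ± 3.32 TPM (0.25, adjusted p = 0.0419), with co-culture 2 high at 28.5 TPM. Its call was lost with the replicate block (adjusted p = 0.0521), with no filter (0.086), without the trend (0.0848) and in each omission of a library except that of co-culture 1 (0.0553 to 0.128), and without co-culture 2 its log2 fold change was 0.15. Differences between these 3 genes were not tested.

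Of the other large-subunit genes, Ppan (0.36), Rrp1b (0.36), Nop16 (0.32), Noc2l (0.31) and the nucleostemin gene Gnl3 (0.23) rose with no call lost when a library was left out. Noc3l, which pairs with Noc2l, rose by 0.22 (adjusted p = 0.0169), and the call was lost without co-culture 1 (0.0695) or co-culture 3 (0.0564). Nip7 was called at an adjusted p of 0.043 although its groups overlapped, with 18.7, 17.2 and 21.5 TPM in the control libraries and 24.1, 23.4 and 21.1 TPM after co-culture. The Nip7 call was lost with the replicate block (0.0689), with no filter (0.0875), without the trend (0.0837) and without control 1, control 2, co-culture 1 or co-culture 2 (0.0999 to 0.148). The GTPase gene Gnl2 was the 1 large-subunit gene that was not called, at 60.8, 59.2 and 55.9 TPM in the control libraries and 64.5, 64.5 and 60.7 TPM after co-culture (0.11, SE 0.05, adjusted p = 0.0956).

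**Figure D2:**
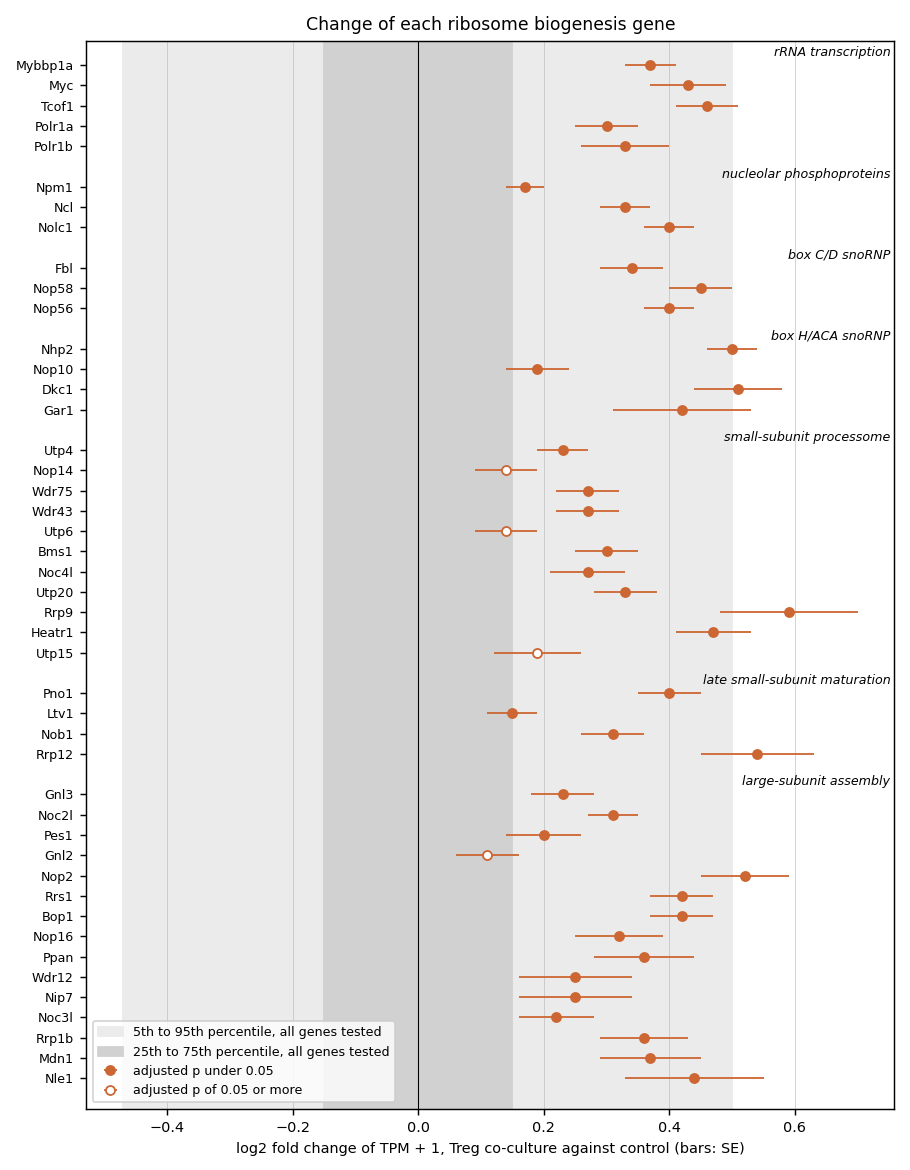
Log2 fold change of each of the 45 genes on the log2(TPM + 1) scale, Treg co-culture against control, with limma standard errors as bars; filled points passed an adjusted p of 0.05 and hollow points (Nop14, Utp6, Utp15 and Gnl2) did not. The dark band spans -0.15 to 0.15 and the light band -0.47 to 0.50, the middle ranges of all genes tested, and every point lies to the right of 0.

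Ribosome biogenesis genes outside the 45 also included many that rose. Of 139 such genes tested, from 6 lists of known factors, 74 rose and 3 fell, with a median log2 fold change of 0.19. Of all genes tested, 19.8% rose and 18.0% fell. Small-subunit factors rose in 29 of 44 cases and fell in none (38 higher and 0 lower at an unadjusted p under 0.05 in limma), and the lowest adjusted p-values were those of the helicase Ddx21 (0.45) and the late factor Tsr1 (0.37). Large-subunit factors rose in 29 of 46 cases, with the lowest adjusted p-values for the helicase Ddx18 (0.34) and the nucleolar protein Rsl1d1 (0.22). The 1 that fell was Nop53 (-0.11, adjusted p = 0.010 in limma), lost without the trend (0.055), while 2 fell without co-culture 3. Of 12 snoRNP assembly genes, 4 rose, among them the paired ATPases Ruvbl2 (0.40) and Ruvbl1 (0.34), and Znhit6, needed for box C/D RNA, fell (-0.18).

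The RNA exosome trims rRNA precursors, and 8 of its 13 genes tested rose, with the nuclease Dis3 at 0.43 and the ring subunit Exosc8 at 0.30. That count fell to 3 without control 2, to 4 without co-culture 3 and to 5 without control 3 or co-culture 2, with no filter on low values, or without the trend. Of 11 genes for the nucleases RNase MRP and RNase P, 2 rose, Pop1 (0.33) and Pop7 (0.37), and Rpp25 fell (-0.32). Of all genes tested, 19.8% rose and 18.0% fell. The Pop7 call was lost without co-culture 2 (adjusted p = 0.0517 in limma), and without co-culture 1 there were 2 lower genes.

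Polymerase III, which makes the smallest rRNA and transfer RNA, showed no common direction at the threshold. Of 17 genes, 2 rose and 2 fell, where 19.8% of all genes tested rose and 18.0% fell. The subunit gene Polr3d (0.25) and Crcp (0.30) rose, while Maf1, a repressor of this polymerase, fell (-0.21), as did the initiation factor Brf1 (-0.24). Crcp lost its call with the replicate block (adjusted p = 0.0568 in limma), with no filter (0.0749), without the trend (0.0828) and without control 2, control 3, co-culture 2 or co-culture 3 (0.0936 to 0.112). The count of lower genes was 3 without co-culture 3.

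Ribosomal proteins make up the finished ribosome. Of 77 cytosolic ribosomal protein genes, 22 rose and 3 fell, where 19.8% of all genes tested rose and 18.0% fell. The median log2 fold change of the 77 was 0.04, against 0.33 for the 45 assembly genes. With quantile normalization the counts were 16 and 8 and the median was 0, without the trend they were 2 and 0, with no filter they were 15 and 1, and without co-culture 1 or co-culture 2 they were 13 and 2. Without control 2 or co-culture 3 they were 21 and 1. Their summed level was 100966 to 102642 TPM in the control libraries and 103971 to 105239 TPM after co-culture. The difference between the lists was not tested.

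**Figure D3:**
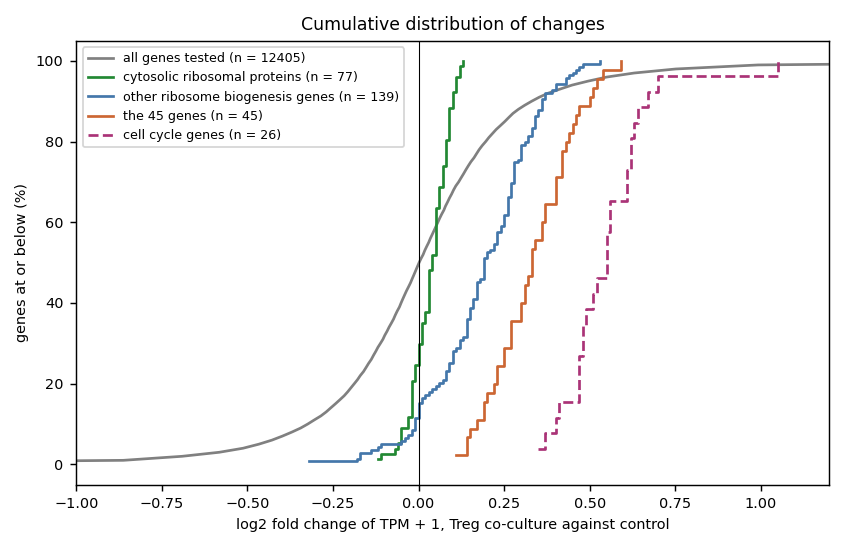
Cumulative distributions of the log2 fold change on the log2(TPM + 1) scale, Treg co-culture against control, for all genes tested (grey), cytosolic ribosomal proteins (green), other ribosome biogenesis genes (blue), the 45 genes (orange) and cell cycle genes (dashed); the axis is limited to -1 to 1.2. The curve of the 45 genes starts at 0.11, and the medians run from 0.04 for ribosomal proteins over 0.19 and 0.33 to 0.55 for cell cycle genes.

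Myc works as a pair with Max on the DNA sequence CACGTG, called an E-box, and the Mxd proteins, Mxi1 and Mnt pair with Max as repressors at the same sites. Of 11 genes of this network beside Myc, 1 rose and 4 fell, where 19.8% of all genes tested rose and 18.0% fell. Max itself had 84.5, 85.4 and 82.8 TPM in the control libraries and 82.8, 84.8 and 79.8 TPM after co-culture and was not called (log2 fold change -0.03, adjusted p = 0.548 in limma). Mxd4 fell from 73.4, 77.9 and 76.8 TPM to 56.2, 52.5 and 52.6 TPM (-0.49, SE 0.04, adjusted p = 1.49e-05). Mxi1 fell from 30.9, 31.6 and 30.9 TPM to 23.0, 24.1 and 23.0 TPM (-0.40, SE 0.05). Mnt fell from 26.5, 27.6 and 27.9 TPM to 22.7, 24.4 and 22.9 TPM (-0.22, SE 0.06). For all 3 the groups did not overlap, which held in this direction for 24.0% of all genes tested. No call of these 3 genes was lost when a library was left out.

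The relatives of Myc moved in opposite directions. Mycn fell from 11.9 ± 0.808 to 9.66 ± 0.207 TPM (log2 fold change -0.27, adjusted p = 0.0197 in limma), a call lost without control 2 (0.0738) or co-culture 2 (0.0577). Mycl had 2.42, 2.92 and 1.21 TPM in the control libraries and 3.76, 4.32 and 4.03 TPM after co-culture (0.70, SE 0.20, adjusted p = 0.0179), a call lost without co-culture 2 (0.0580). Of the rest, none passed the threshold in the fit to all libraries. Mxd1 stood at -0.29, Mlxip at -0.11, Mga at -0.08, Mlx at 0.17 and Mxd3 at 0.22, and Mlx passed without co-culture 1 (adjusted p = 0.0437). Co-culture lay wholly below control for 6 of the 11 network genes and wholly above for 1, against 24.0% and 25.3% of all genes tested.

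**Figure D4:**
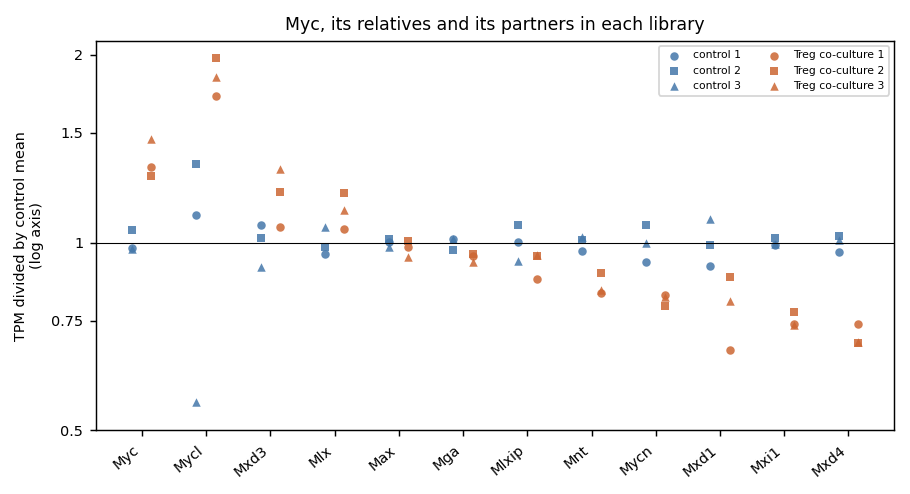
TPM of Myc and 11 genes of its network in each library, divided by the control mean of the gene, on a log axis; blue marks are control and orange marks Treg co-culture libraries, and the mark shape gives the batch. Myc and Mycl lie above 1 after co-culture, and Max lies close to 1. The 4 genes called lower, Mnt, Mycn, Mxi1 and Mxd4, lie below 1 in all 3 co-culture libraries.

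E-boxes were looked for in the promoters of the 45 genes, since many of them are known Myc targets. RefSeq promoter sequences (build GRCm38.p6, 250 bases before to 50 bases after each annotated start) were at hand for 36 of the 45 genes. The letters CACGTG, which read the same on both strands, occurred in 10 of these 36 (27.8%). They occurred in 16.8% of 119 promoters of the other ribosome biogenesis genes, in 11.8% of 9870 promoters of genes tested and in 8.09% of all 27025 genes with a promoter. The median GC content was 58.2% for the 36 genes, 58.7% for the other biogenesis genes, 61.0% for the genes tested and 52.8% for all genes. In 9 of the 10 genes the E-box began after the start site, from base 3 to base 41 of the transcript, and in Nop2 it began 60 bases before it. A match is a description of the letters, and binding was not measured. The promoters of Bop1, Fbl, Gnl2, Myc, Npm1, Rrp12, Rrs1, Tcof1 and Utp6 were not searched.

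The 30 bases around each E-box, with the E-box in capitals, are shown 5′ to 3′ on the strand of the gene, so that the shared letters and the differing flanks can be compared.
Ltv1, chr10:13193092-13193121, minus strand: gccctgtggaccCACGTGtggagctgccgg
Mdn1, chr4:32657139-32657168, plus strand: caacgtgaattccttcacCACGTGtgtgtc
Mybbp1a, chr11:72441347-72441376, plus strand: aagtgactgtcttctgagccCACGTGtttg
Nle1, chr11:82908355-82908384, minus strand: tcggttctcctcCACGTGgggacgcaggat
Nop2, chr6:125131811-125131840, plus strand: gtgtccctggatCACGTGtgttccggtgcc
Pes1, chr11:3963965-3963994, plus strand: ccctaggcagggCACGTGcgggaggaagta
Pno1, chr11:17211540-17211569, minus strand: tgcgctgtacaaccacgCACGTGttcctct
Utp20, chr10:88826765-88826794, minus strand: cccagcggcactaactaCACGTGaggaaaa
Utp4, chr8:106893643-106893672, plus strand: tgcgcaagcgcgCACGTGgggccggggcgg
Wdr43, chr17:71616220-71616249, plus strand: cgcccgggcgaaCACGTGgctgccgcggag

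The 250 bases upstream of Nop2 are given in full, since it holds the 1 E-box that lies before the start site and rose by 0.52 on the log2 scale.
Nop2, chr6:125131633-125131882, plus strand: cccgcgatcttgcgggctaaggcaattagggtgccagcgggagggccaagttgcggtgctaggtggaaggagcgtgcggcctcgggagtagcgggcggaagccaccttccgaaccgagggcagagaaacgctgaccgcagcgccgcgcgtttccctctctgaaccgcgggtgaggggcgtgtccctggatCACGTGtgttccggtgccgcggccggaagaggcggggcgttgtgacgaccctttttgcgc

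Rises were seen both with and without the E-box, and the difference was not tested. All 10 genes with it rose, with a median log2 fold change of 0.35 (0.15 to 0.52). Without it, 24 of the 26 searched genes rose, with a median of 0.32 (0.14 to 0.59). Among all genes tested, the share that rose was 19.8%. Rrp9, with the largest rise, has no such letters in this window.

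Cell cycle genes and muscle cell markers rose with the 45 genes, while the other marker lists did not rise as a body. The part of these lists in the result was not tested. Of all genes tested, 19.8% rose and 18.0% fell. All 26 cell cycle genes tested rose, with a median log2 fold change of 0.55 and Mki67, a protein of dividing cells, at 56.2 ± 0.260 TPM in the control libraries and 78.2 ± 0.583 TPM after co-culture. All 10 muscle cell markers rose, and their summed level went from between 1345 and 1389 TPM in controls to between 3449 and 3530 TPM. Of 12 stromal cell markers, 8 fell and 3 rose, with sums of 14167 to 14862 TPM in the control libraries and 11605 to 12025 TPM after co-culture. Most of each sum came from Col1a1 (means of 6705 and 5939 TPM) and Col3a1 (5080 and 3607 TPM), so the sums say little of the other stromal markers. The higher call of Eng was lost with the replicate block (adjusted p = 0.0737 in limma) and whenever a library was left out. The lower calls of Thy1 and Ly6a were lost in some omissions of a library. Of 10 macrophage markers, 8 were tested, 1 of them fell and none rose, and the sums were 93.7 to 101 TPM in the control libraries and 67.9 to 80.0 TPM after co-culture. Most of each macrophage sum came from Lyz2, the 1 gene that fell (means of 65.9 and 44.7 TPM). These sums thus say little of the other macrophage markers. Of 15 T cell and Treg markers, 9 were listed at 0 in all 6 libraries, among them the defining genes Cd3e, Cd3d, Cd3g and Cd4, and the sums were 3.47 to 3.91 TPM in the control libraries and 3.83 to 4.35 TPM after co-culture.

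Libraries of a group measured most of the 45 genes evenly. The coefficient of variation between the 3 libraries of a group had a median of 4.28% in controls and 3.82% after co-culture, with a highest value of 18.0% (Rrp9, controls) and 16.1% (Gar1, co-culture). Exons of 13 of the 45 genes overlap exons of a gene on the other strand in the GENCODE annotation (Bop1, Dkc1, Gnl2, Gnl3, Mybbp1a, Nhp2, Nle1, Noc2l, Nop14, Nop56, Pes1, Polr1a and Rrp1b). No source used here says whether reads were counted by strand, so reads of such a gene and its neighbour cannot be told apart. The same holds for reads that Npm1 shares with near-identical copies, whose handling is not stated.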

How the data were processed

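RNA-seq values come as TPM, which the authors deposited in 1 table for 3 control and 3 Treg co-culture libraries. Per the labels' protocols, mRNA was captured on beads and broken by heat, followed by cDNA synthesis and adapter ligation. The submitters' processing notes name GRCm38, mm10 and GRCm39 with no role. No source used here gives the aligner, counting tool or annotation. TPM keeps no depth, and each column sums to 1000000.

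Gene numbers were matched to symbols in a RefSeq table of GRCm38.p6 (21992 of 22186 genes), used for names only. The 12405 genes whose mean reached 1 TPM were tested with limma (version 3.58.1, R 4.3.3, trend on) on log2(TPM + 1), which understates the change of low genes, without a block, Benjamini-Hochberg adjusted, threshold 0.05. SE are limma's. The fit was tested on simulated data, in which far fewer genes changed than were called here. There the fit recovered 98% of changes of 1 and 56% of changes of 0.3 on the log2 scale, with 9 false calls. The labels pair libraries by batch, so batch as a block was an alternative, though deviations of libraries of 1 batch correlated at only -0.0146 to 0.0115. Members and lists were chosen with earlier results of these data known. Values for every library are given for the 3 genes per role with the lowest adjusted p and for Myc, Ncl and Npm1, with up to 2 genes per direction and further list. Other genes shown library by library were chosen after their values were seen. Alternatives were pseudocount, filter, scaling, trend, threshold and each library left out.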

Additional observations from a re-analysis of the deposited data

How the results depend on the processing

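No gene of the 45 reversed direction under any of the 15 alternatives, and 34 of the 41 calls held in every one. With the replicate block 39 of the 45 rose, with Wdr12 (adjusted p = 0.0521) and Nip7 (0.0689) lost and 69 of the other biogenesis genes higher, and it changed no other call of the 45, and with each library left out 36 to 40 rose. The count was 41 with median-of-ratios scaling, quantile normalization, a pseudocount of 0.1 or rescaling without mitochondrial and ribosomal protein genes, 39 with no filter, 38 without the trend and 34 at a threshold of 0.01. The median log2 fold change stayed between 0.32 and 0.34. At the threshold of 0.01, other biogenesis genes called higher numbered 45, Myc network genes 0 higher and 2 lower, other small-subunit genes 19 higher, RNA exosome genes 2 higher, ribosomal protein genes 11 higher and 1 lower, and all genes 1626 higher and 1417 lower. Myc network genes called higher numbered 0 with a filter of 5 TPM, which left Mycl untested, and 0 to 2 with a library left out. Depth is unknown, and 3 libraries a group limit the precision.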
